A study of Mus musculus with 18 samples.

Results

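The cohesin subunit RAD21 and the cohesin loader NIPBL were compared in cells in which dCas9 was held at a guide RNA target named Sg1. The comparison rests on 4 peak lists, 2 for RAD21 and 2 for NIPBL, chosen by their labels from the 14 peak lists of a series of 18 samples. The 4 matching lists from control cells without the guide are given beside them. All came from a single RAG2-deficient mouse pro-B line transformed by v-Abl, in which the JH segments are deleted and a Bcl2 transgene is driven by Eμ. The line expresses dCas9, a catalytically dead nuclease that occupies the site its guide RNA names. The block group also expressed the Sg1 guide RNA, and the control group did not. The labels do not spell out Sg1; it is taken here to stand for Sγ1, the switch region of the γ1 constant gene. Both groups had been kept in 3 uM STI-571, an inhibitor of the Abl kinase, for 4 days, which stops such lines cycling. No label says that replicates came from separate cultures, so the spread between the 2 libraries of a group may be technical.

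Cohesin is a ring that encloses DNA and, with NIPBL bound to it, reels chromatin into growing loops. Extrusion slows or stops at sites where CTCF is bound in a facing orientation, and ring subunits such as RAD21 gather there, while NIPBL is often mapped at active promoters and enhancers. At the immunoglobulin heavy chain locus (Igh), loops run from the CTCF sites past the 3' end (3'CBEs) to IGCR1, a control region with CTCF sites that separates the VH from the DH segments. The RAG recombinase scans along such loops. Switch (S) regions are long repeats ahead of the constant genes, rich in the AGCT motif that activation-induced deaminase favours during class switching. The mouse locus is read on the minus strand, so its 3' end has the lower coordinates.

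The sequences on which the order of peaks in Igh turns are given first, from mm9 (NCBIM37). The lines that follow show matches to an 11 bp CTCF core consensus, in capitals with 10 bases on each side. They lie in RAD21 regions at the 2 ends of the RAD21 series in the Igh interval examined. All 3 exact matches in the RAD21 regions of that interval were on the plus strand and lay in the 3'CBEs at chr12:114454329-114454339, chr12:114458264-114458274 and chr12:114459619-114459629. Neither IGCR1 region held an exact match. Their best matches were 1 letter off and lay on the minus strand at chr12:114723482-114723492 and on the plus strand at chr12:114726099-114726109, so the pair pointed apart on the 2 strands. An exact match on either strand was found in 0.357% of all 300 bp tiles of the genome, and a match at most 1 letter off in 8.13%, so the second kind carries little information on its own.
3'CBE core at 114454329, plus strand: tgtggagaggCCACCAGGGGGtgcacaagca
3'CBE core at 114458264, plus strand: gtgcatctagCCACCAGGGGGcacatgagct
3'CBE core at 114459619, plus strand: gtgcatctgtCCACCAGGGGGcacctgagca
IGCR1 near match at 114723482, minus strand: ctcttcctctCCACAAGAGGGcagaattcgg
IGCR1 near match at 114726099, plus strand: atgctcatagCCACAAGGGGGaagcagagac

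The other stretches come from switch regions and are written on the minus strand, in the direction of Igh transcription, with AGCT in capitals. The Sγ1 stretch, chr12:114573840-114574139, lies inside the longest overlap of RAD21 and NIPBL in the locus. It holds 6 copies of AGCT, and the shared region around it repeats itself with a period of 49 bp. At that lag 77.6% of its bases were identical, against a median of 27.5% over the lags examined. The Sμ stretch, chr12:114662582-114662881, lies in a region called only for NIPBL in both of its libraries. It holds 38 copies of AGCT, with a period of 20 bp at which 88.4% of bases were identical. A 300 bp tile of the genome held 1.43 copies of AGCT on average, and 2.35% of tiles held 5 or more. How reads with several matches were placed in such repeats is not given in the sources used here.
Sγ1: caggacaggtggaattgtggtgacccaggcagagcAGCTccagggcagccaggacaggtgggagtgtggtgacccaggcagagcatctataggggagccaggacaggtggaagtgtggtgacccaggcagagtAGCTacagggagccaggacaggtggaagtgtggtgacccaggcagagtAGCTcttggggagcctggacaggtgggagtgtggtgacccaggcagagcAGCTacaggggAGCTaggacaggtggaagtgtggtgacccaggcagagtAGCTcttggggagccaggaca
Sμ: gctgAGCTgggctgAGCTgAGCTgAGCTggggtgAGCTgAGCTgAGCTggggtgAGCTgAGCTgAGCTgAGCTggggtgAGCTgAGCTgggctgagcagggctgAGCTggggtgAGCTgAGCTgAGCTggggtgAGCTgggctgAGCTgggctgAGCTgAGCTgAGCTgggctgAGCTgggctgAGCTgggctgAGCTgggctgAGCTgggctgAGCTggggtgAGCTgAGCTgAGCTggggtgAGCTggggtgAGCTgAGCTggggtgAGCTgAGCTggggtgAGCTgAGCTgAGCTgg

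The lists differed in length. On the 19 autosomes and X, RAD21 block replicate 1 had 82688 peaks covering 23.66 Mb and replicate 2 had 79842 peaks covering 31.51 Mb. NIPBL block replicate 1 had 63052 peaks covering 20.33 Mb, and replicate 2 had 123391 peaks, the most of the 4, covering 29.8 Mb. RAD21 peaks were the wider, with median widths of 222 and 287 bp against 180 and 151 bp for NIPBL. Read depth is unknown for every list, so presence and length of called peaks were compared and not read density. Styles of peak names also differed: the RAD21 replicates had 2 different styles, and the NIPBL lists shared another. No style of peak names held both proteins, so antibody and naming style cannot be told apart. No value within a style can be given for both proteins, and whether the styles mark batches is not known.

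Cohesin and its loader were called at largely different places in blocked cells. A region was counted for a protein when its merged peaks held a peak from both libraries. RAD21 had 49553 such regions and NIPBL 36848. Of the RAD21 regions, 10358 (20.9%) overlapped a NIPBL region by at least 1 bp, and 10814 of the NIPBL regions (29.35%) overlapped a RAD21 region. In bases, 5.101 Mb were shared, which was 18.58% of the RAD21 and 24.04% of the NIPBL length, while the regions covered 1.04% and 0.804% of the genome. When the 4 lists were merged together they gave 223243 places. Of these, 4.71% held a peak of all 4 libraries, 15% held both RAD21 libraries and neither NIPBL library (33437 places), and 8.26% held both NIPBL libraries and neither RAD21 library (18438 places). The largest single pattern was a peak in NIPBL replicate 2 alone, at 34.8%.

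Single lists gave a spread about these shares. RAD21 replicate 1 peaks overlapped NIPBL replicate 1 in 16.22% and NIPBL replicate 2 in 19.04% of cases. RAD21 replicate 2 peaks did so in 28.04% and 30.4%. The RAD21 library thus set the level more than the NIPBL library. The mean over the 4 pairings was 23.42% ± 6.86 (SD). Read the other way, 21.12% and 34.66% of NIPBL replicate 1 peaks, and 12.78% and 19.45% of NIPBL replicate 2 peaks, overlapped RAD21 replicates 1 and 2, with a mean of 22.0% ± 9.17. The 4 pairings share libraries and are not 4 replicates. Within a protein, 62.91% of RAD21 replicate 1 peaks overlapped replicate 2, and 60.7% of NIPBL replicate 1 peaks overlapped NIPBL replicate 2, whereas 30.78% did so the other way round. When a library was left out, every peak of that protein's other list counted as a region. Such shares therefore rest on a looser definition as well as on fewer libraries. The share of RAD21 regions over NIPBL regions was 28.36% without NIPBL replicate 1 and 13.72% without RAD21 replicate 2. It was 8.421% when only peaks with −log10 q of at least 3 were used. The share of NIPBL regions over RAD21 regions was 48.17% without RAD21 replicate 1 and 12.78% without NIPBL replicate 1.

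In control cells 14.17% of 41593 RAD21 regions and 19.5% of 32156 NIPBL regions overlapped. Per pair of lists the control shares were 18.86% ± 5.74 for RAD21 over NIPBL and 14.95% ± 6.82 for NIPBL over RAD21. These pair means lay within a block SD of the block pair means. The SD is over pairings that share libraries, so it does not measure the spread between replicates. The higher overlap of block regions than of control regions was not tested. Most block regions were also control regions of the same protein, 78.04% for RAD21 and 62.64% for NIPBL.

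**Figure D1:**
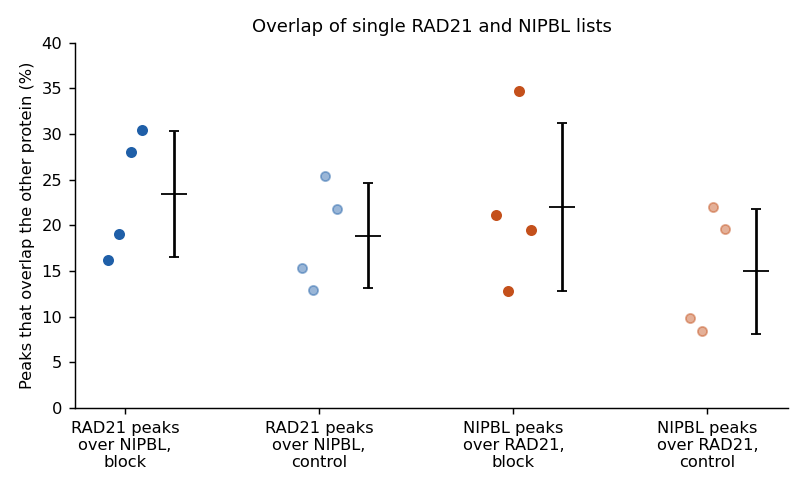
Percent of peaks of one list that overlap a peak of the other protein, for each of the 4 pairs of RAD21 and NIPBL libraries in block (dark) and control (pale) cells, with the mean and SD at right. Block pairs lie between 16.22% and 30.4% for RAD21 peaks and between 12.78% and 34.66% for NIPBL peaks, and block and control pairs overlap.

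The regions of the 2 proteins differed in what lay under them. RAD21 regions with no NIPBL peak in either list were 67.48% of all RAD21 regions. Their median width was 356 bp, 3.685% of them lay within 1 kb of an annotated start, and 18.75% held a CTCF core (Wilson 95% interval 18.33 to 19.17). RAD21 regions shared with NIPBL were wider, with a median of 697 bp. Of these, 34.1% lay within 1 kb of a start, and 7.965% held a core (7.459 to 8.502). Cores were counted only in the 300 bp around the centre of each region, whatever its width. The shared regions thus held a core less often near their centres, and cores further out in wide regions were not counted. Among NIPBL regions, cores were in 6.972% of those shared with RAD21 (6.508 to 7.468) and in 0.2874% of those with no RAD21 peak (0.2198 to 0.3758). The last share is near that of 300 bp tiles of the genome, 0.357%. Intervals cover counting error only, since regions of a pair of libraries are not replicates of a condition.

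NIPBL regions fell into 3 kinds by their place. The 7596 regions that met a RAD21 peak, but no RAD21 region called in both libraries, lay closest to genes. Of these, 55.06% were within 1 kb of a start and 41.02% had their centre in an exon. The 10814 shared regions had 33.57% within 1 kb. The 18438 NIPBL regions with no RAD21 peak had 16.49% within 1 kb, and 30.77% of them lay beyond 50 kb from any start. NIPBL peaks of high fold lay near genes and RAD21 more often than those of low fold. Each list was cut into 5 equal bins by fold, the authors' enrichment value for a peak. In the bin of highest fold, 72.38% of NIPBL replicate 1 and 47.38% of NIPBL replicate 2 peaks lay within 5 kb of a start, against 24.29% and 19.28% in the lowest bin. In the same bins 44.69% and 28.58% overlapped a RAD21 region, against 10.27% and 6.216%. For RAD21 the share within 5 kb of a start ran the other way, with 23.72% in the highest and 28.57% in the lowest bin of replicate 1, and 24.38% and 35.12% in replicate 2. The share of RAD21 peaks over a NIPBL region was 17.05% in the highest and 12.81% in the lowest bin of replicate 1, and 18.37% and 19.91% in replicate 2, so the replicates differed in direction.

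**Figure D2:**
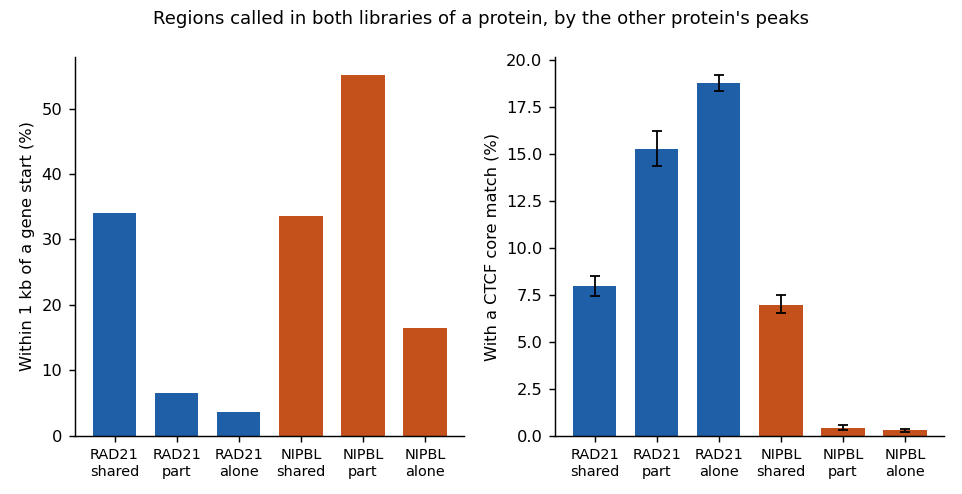
Percent of regions within 1 kb of a gene start (left) and with an exact CTCF core match (right, Wilson 95% intervals) for RAD21 (blue) and NIPBL (orange) regions. Matches were counted only in the 300 bp around the centre of each region. Shared regions overlap a region of the other protein, part regions have some of its peaks, and alone regions have none; cores lie in 18.75% of RAD21 regions alone and 0.2874% of NIPBL regions alone.

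Distance to gene starts, taken over whole lists, did not separate the proteins. The median distance was 16.3 and 12.81 kb in the RAD21 lists and 12.02 and 18.16 kb in the NIPBL lists. Peaks within 5 kb of a start made up 24.55% and 31.44% of the RAD21 lists and 35.13% and 26.04% of the NIPBL lists. The means were 28.0% ± 4.87 and 30.59% ± 6.43 (SD, n = 2 each), and the exact two-sided permutation test gave p = 0.667, where 0.333 is the smallest p that 2 against 2 allows. The call depended on the peak threshold. With −log10 q of at least 3, the shares were 22.45% and 27.42% for RAD21 and 53.61% and 66.29% for NIPBL, so that the groups no longer overlapped (means 24.94% ± 3.51 and 59.95% ± 8.97, exact permutation p = 0.333). That threshold kept 42.7% and 52.3% of the RAD21 lists, and 35.3% and 11.1% of the NIPBL lists. The median distance of the remaining peaks was 16.81 and 14.1 kb for RAD21 and 3.384 and 0.3965 kb for NIPBL, and the sign of the difference in medians turned.

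At the starts themselves NIPBL coverage was high in both libraries and RAD21 coverage was not. Of 22322 distinct protein-coding starts, 41.21% were covered by a NIPBL replicate 1 peak and 42.93% by a NIPBL replicate 2 peak at the highest point, 100 bp downstream of the start. RAD21 replicate 1 reached 6.084% at 100 bp upstream, and RAD21 replicate 2 reached 22.9% at the start. At 5 kb upstream all 4 libraries were low, from 1.496% to 2.459%. NIPBL coverage stayed above 50% of its highest value from 200 bp upstream to 500 bp downstream in both libraries. Where both proteins had a region within 2 kb of the same start (3903 pairs), the centre of the RAD21 region lay a median of 49 bp upstream of the NIPBL centre. RAD21 was the upstream member in 55.62% of pairs, and the central 50% of the offsets ran from 304 bp upstream to 212 bp downstream, so the order at single starts went both ways.

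**Figure D3:**
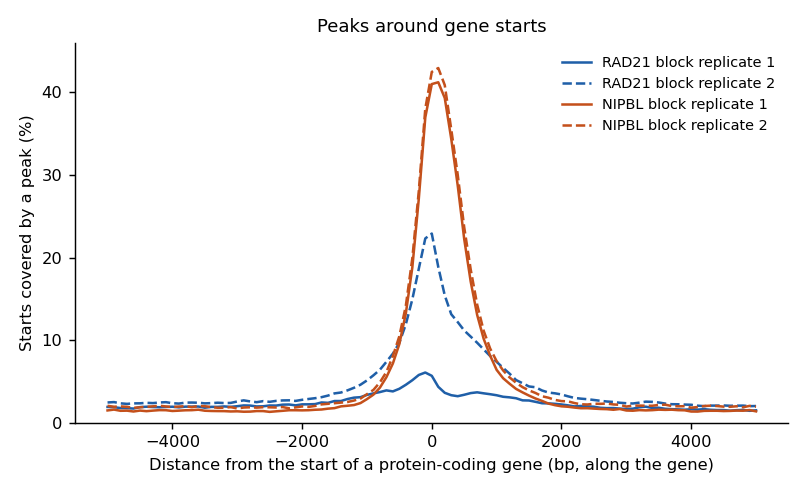
Percent of 22322 distinct protein-coding starts covered by a peak, in 100 bp steps from 5 kb before to 5 kb after the start, for the 4 block libraries. Both NIPBL curves peak above 40% at 100 bp downstream, while RAD21 replicate 2 reaches 22.9% and RAD21 replicate 1 reaches 6.084%.

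Of 37252 annotated genes, 12154 (32.6%) had a RAD21 region within 5 kb of the start, 15318 (41.1%) had a NIPBL region and 8701 (23.4%) had both. NIPBL was thus found at 71.59% of the RAD21 genes, and RAD21 at 56.8% of the NIPBL genes. For protein-coding genes these shares were 81.19% and 57.2%. Fewer genes had a region of 1 protein and no peak of the other in either list: 1712 (4.6%) for RAD21 and 2319 (6.23%) for NIPBL. The gene shares count any region of each protein within 5 kb of a start and need no overlap. They are therefore not comparable with the shares of bases. In control cells 10588 genes had a RAD21 region, 14360 a NIPBL region and 6970 both.

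Covered length around starts was then tested for each gene. In windows of 10 kb centred on a start, limma was applied to log2 of covered bp plus 500 over 10352 genes whose mean was at least 500 bp. RAD21 covered more at 218 genes (2.11%) and NIPBL at 912 (8.81%) at an adjusted p under 0.05. The median difference over all tested genes was -0.50, towards NIPBL. With quantile normalization, which forces the 4 lists to 1 distribution, the counts were 1468 and 1430 and the median was -0.03, so the balance between directions depends on that scaling. Without RAD21 replicate 1 the counts were 1278 and 2343, and without RAD21 replicate 2 they were 745 and 5988. Without either NIPBL library no gene passed: limma then gave 221 and 925 genes at an unadjusted p under 0.05 without NIPBL replicate 1, and 292 and 801 without replicate 2. Every gene named from this test lost its call without either NIPBL library.

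Among called protein-coding genes whose symbol is not a clone or Rik name, those with the largest excess of RAD21 in covered bp were Heatr7b1, Mbnl1, Speer4d, Pyhin1, Gbp2, Calcrl, Speer4c and Gimap8. At Gbp2, which encodes an interferon-induced GTPase, RAD21 covered 3670 and 3049 bp of the 10 kb and NIPBL 130 and 102 bp. The log2 difference was 2.64 (SE 0.244, limma adjusted p = 0.0334). At Mbnl1, the gene of a splicing regulator, RAD21 covered 2852 and 4747 bp, and NIPBL covered 0 and 293 bp. Gimap8, of a family of lymphocyte GTPases, had 2845 and 3651 bp of RAD21 and 132 and 410 bp of NIPBL. Calcrl, a receptor for calcitonin-related peptides, had 2186 and 4524 bp against 220 and 180 bp. In none of these 4 genes did the groups overlap, and RAD21 covered more than NIPBL in the control lists too, with 2374 and 3168 bp against 0 and 51 bp at Gbp2. Speer4d and Speer4c have near-identical copies, so their values (4807 and 2860 bp of RAD21 at Speer4d) are uncertain.

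In the same class of genes, those with the largest excess of NIPBL were Flg (3 annotated entries), Midn, Hist1h4m, Hist1h2ao, Hist1h2bq and H2-Ke6. At Midn NIPBL covered 6107 and 5622 bp and RAD21 1105 and 1168 bp, which limma put at -1.96 on the log2 scale (SE 0.234, adjusted p = 0.0334). The histone genes Hist1h4m and Hist1h2ao sit side by side on chromosome 13, so their windows overlap. Hist1h4m had 4805 and 5192 bp of NIPBL against 462 and 645 bp of RAD21. H2-Ke6 had 3950 and 3962 bp of NIPBL against 0 and 133 bp of RAD21. At the first Flg start, in the gene of the skin protein filaggrin, NIPBL covered 4235 and 6208 bp and no RAD21 peak was called. Flg also had 5716 and 4860 bp of NIPBL in the control lists, and its coding sequence is a long internal repeat, so its values are uncertain. Midn, Hist1h4m and H2-Ke6 each had more NIPBL than RAD21 in the control lists as well.

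Gene lists were read against the shares of all annotated genes, 32.6% for RAD21 regions and 41.1% for NIPBL regions. Among protein-coding genes alone these shares were higher, at 37.7% and 53.5%. Of 23 early B cell genes, 21 had a RAD21 region, 22 a NIPBL region and 20 both. Of the 22 tested, 0 passed limma's adjusted p of 0.05 and 3, all with more RAD21, had an unadjusted p under 0.05; the median log2 difference was -0.24, against -0.50 over all tested genes. Rag1, a subunit of the recombinase, had 1056 and 2561 bp of RAD21 and 350 and 366 bp of NIPBL. Il7r, the receptor for interleukin 7, had 822 and 5683 bp of RAD21 and 0 and 139 bp of NIPBL, with replicate 2 much the higher of the RAD21 pair. Pou2af1 had 2215 and 5783 bp of RAD21 and 1111 and 1039 bp of NIPBL. Spib went the other way, with 414 and 3362 bp of RAD21 and 3579 and 4966 bp of NIPBL. Bcl11a also leaned to NIPBL by its mean, with 1378 and 5121 bp of RAD21 and 4845 and 5274 bp of NIPBL, but its groups overlapped. Among 16 genes of the v-Abl and STAT5 response, 15 had both proteins. Of the 15 tested by limma 0 passed, 2 had an unadjusted p under 0.05 with more RAD21, and the median was 0.16. Bcl6, a repressor that STAT5 holds down, had 5316 and 7074 bp of RAD21 and 3056 and 3092 bp of NIPBL. In 7 of these genes RAD21 covered more than NIPBL in both libraries, against 15.2% of all tested genes.

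The genes of cohesin, its loader and CTCF leaned to NIPBL at their own starts. Of 15, 13 had a NIPBL region and 8 a RAD21 region. NIPBL covered more at 3 of the 12 tested by limma at an adjusted p under 0.05, against 8.81% of all tested genes, and in 9 the 2 groups did not overlap with NIPBL higher, against 50.2% of all tested genes. The median was -0.997. Stag2, a cohesin subunit, had 329 and 589 bp of RAD21 and 1971 and 2345 bp of NIPBL. Smc3, another subunit of the ring, had 266 and 466 bp against 1524 and 1590 bp. At Nipbl itself RAD21 covered 803 and 2150 bp and NIPBL 2278 and 2820 bp. In the class switch and end joining list, 8 of 13 genes had a RAD21 region and 10 a NIPBL region, and 1 of 8 tested passed towards NIPBL, near the 8.81% of all tested genes. Ung, the uracil glycosylase, had 275 and 467 bp of RAD21 and 1848 and 1988 bp of NIPBL.

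The canonical histone genes leaned furthest to NIPBL among the larger lists. All 67 had a NIPBL region and 35 a RAD21 region. Of 62 tested, 25 had more NIPBL by limma at an adjusted p under 0.05, against 8.81% of all tested genes. For more RAD21 the count was 0, also at an unadjusted p under 0.05, and the median was -1.66. These genes lie in clusters and share windows, so they are not 67 separate places. All 10 housekeeping genes had a NIPBL region and 4 a RAD21 region. Ribosomal protein genes had a NIPBL region in 77 and a RAD21 region in 48 of 79, and 3 of 61 tested passed towards NIPBL, a share below the 8.81% of all tested genes. Hox genes, which pattern the body axis, had RAD21 in 16 and NIPBL in 10 of 39. Of 1087 olfactory receptor genes 43 had RAD21, 34 NIPBL and 5 both, and 855 had no peak in any list. Markers of other blood lineages were called less widely than the early B cell list: 2 of 9 T cell genes had RAD21 and 4 had NIPBL. The counts were 2 and 4 of 8 in the myeloid list and 3 and 2 of 8 in the erythroid list. These are 25% and 50% in the myeloid list and 37.5% and 25% in the erythroid list. Among all protein-coding genes 37.7% had a RAD21 region and 53.5% a NIPBL region.

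In windows of 10 kb across the genome, 14550 passed the filter. RAD21 covered more in 2239 (15.4%) and NIPBL in 1904 (13.1%) by limma at an adjusted p under 0.05. Of the windows with more RAD21, 16.75% held an annotated start, against 56.04% of those with more NIPBL and 51.14% of all tested. In the windows with more RAD21 the median covered length was 1256 and 1445 bp for the RAD21 libraries and 77 and 142 bp for NIPBL. In the windows with more NIPBL it was 1178 and 1359 bp for NIPBL and 0 and 51 bp for RAD21. Without either NIPBL library no window passed by limma, with 1713 and 1706 at an unadjusted p under 0.05 without NIPBL replicate 1, and 1995 and 1487 without replicate 2. Without RAD21 replicate 2, NIPBL covered more in 4020 windows.

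The shared regions of highest mean fold were next to Gm10800, Gm17635, Gm5614, Gm10801 and 1700012B15Rik, all predicted or clone-named genes. The first, chr2:98506385-98507506, lay 512 bp from the start of Gm10800, with folds of 35.82 and 44.1 for RAD21 and 71.24 and 73.92 for NIPBL. It held the highest fold of both RAD21 lists. Folds of different lists are not on 1 scale. The region near 1700012B15Rik was 126616 bp from its start. Whether reads from repeated sequence raise the folds at these places was not tested.

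The interval chr12:114430001-114815000 of Igh, 385 kb from past the 3' end to beyond IGCR1, held 17 and 28 RAD21 peaks and 39 and 47 NIPBL peaks. They covered 10230 and 14887 bp for RAD21 and 10963 and 11457 bp for NIPBL, so both proteins covered about the same length of the locus. There were 15 RAD21 regions and 19 NIPBL regions called in both libraries, and 8 of each overlapped. RAD21 came first and last: it began at chr12:114443811-114444126 in the 3'CBEs and ended at chr12:114725713-114726488 in IGCR1. The first NIPBL region lay 10411 bp inside the first RAD21 region by centres, and the last, chr12:114668632-114668906 near JH, was 146.1 kb short of the far end of the interval.

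**Figure D4:**
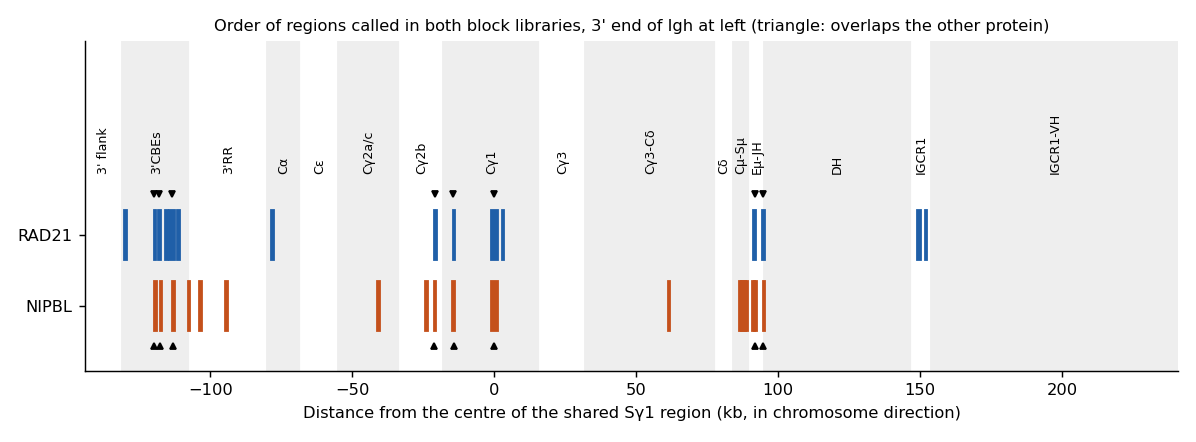
RAD21 (blue) and NIPBL (orange) regions called in both block libraries, by distance in kb from the centre of the shared Sγ1 region, with the segments of Igh shaded; bars under 0.9 kb are drawn at 0.9 kb, and triangles mark the 8 overlaps. RAD21 lies alone at both ends, NIPBL alone in the 3'RR and in Cμ-Sμ, and the proteins meet at Sγ1.

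In the 3'CBEs RAD21 was the main protein. Its peaks covered 17.74% and 26.18% of this 24 kb segment and NIPBL peaks 8.167% and 5.621%, so the groups did not overlap (exact permutation p = 0.333, the smallest allowed). Here lay 6 of the 15 RAD21 regions, and 3 of them overlapped a NIPBL region. In each of the 3 the NIPBL region lay wholly inside the RAD21 region and covered 56.4%, 12.8% and 29.8% of it. The widest, chr12:114459394-114461640, had RAD21 folds of 12.89 and 17.26, at percentiles 99.6 and 98.5 of their lists, and NIPBL folds of 5.739 and 4.431. RAD21 was called without NIPBL at chr12:114458076-114459172, over an exact core, with 1002 and 1097 bp covered. The 10 kb window from 114450001 had 2286 and 3104 bp of RAD21 and 478 and 278 bp of NIPBL, which limma put at 1.86 on the log2 scale (SE 0.275, adjusted p = 0.0196), and this call too was lost without either NIPBL library.

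Between the 3'CBEs and Cγ2b most regions were NIPBL regions. The 3' regulatory region (3'RR), the enhancer cluster past Cα, had 2 NIPBL regions, at chr12:114470223-114470811 and chr12:114479263-114479732, and no RAD21 peak in either list. NIPBL covered 1330 and 824 bp of this 27 kb segment. A single small RAD21 region lay by Cα (chr12:114495516-114495821), with a near match to the CTCF core 1 letter off. NIPBL alone followed at chr12:114532916-114533157 in Cγ2a/c and chr12:114549791-114550208 in Cγ2b. These lay in G-rich sequence with 3.31 and 3.35 copies of AGCT per 100 bp. A shared region, chr12:114552652-114553249, lay further along in Cγ2b, with 227 and 305 bp of RAD21 and 232 and 540 bp of NIPBL.

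The Cγ1 segment held the longest overlap. At Sγ1 the RAD21 region was chr12:114572792-114575421 and the NIPBL region chr12:114572729-114575188, so 2397 bp were shared, 91.1% of the first and 97.4% of the second. This stretch is intergenic in the annotation and its centre lies 5341 bp upstream of the Ighg1 start. RAD21 block replicates 1 and 2 covered 2630 and 2478 bp, and NIPBL block replicates 1 and 2 covered 2227 and 2294 bp, each in a single peak. All 4 libraries therefore covered nearly the whole region, and RAD21 covered slightly more (2554 ± 107 against 2260.5 ± 47.4 bp, SD, n = 2 each, exact permutation p = 0.333, the smallest allowed). The folds were 5.42 and 6.119 for RAD21, at percentiles 74.8 and 70.3 of their own lists. They were 11.2 and 8.112 for NIPBL, at percentiles 98.3 and 99.0. Sγ1 thus ranked higher among NIPBL peaks than among RAD21 peaks by fold. By width it ranked 106 of 82688 and 336 of 79842 peaks for RAD21. For NIPBL the width ranks were 187 of 63052 and 210 of 123391, so it was among the widest peaks of all 4 lists.

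On the 3' side of the locus the Sγ1 peaks began at 114572792 and 114572827 for RAD21 and at 114572962 and 114572729 for NIPBL, so the edges of the 2 proteins were interleaved there. On the 5' side they ended at 114575421 and 114575304 for RAD21 and at 114575188 and 114575022 for NIPBL, so both RAD21 peaks reached further than both NIPBL peaks. Beyond this edge, towards Sμ, RAD21 alone was called again at chr12:114576664-114576933, with 240 and 230 bp. This small region also lies in switch repeats, with 2.59 copies of AGCT per 100 bp. The guide target was not located here, because the guide sequence is not given in the sources used. On the other side a shared region, chr12:114559229-114560154, had 271 and 164 bp of RAD21 and 697 and 855 bp of NIPBL, and there the RAD21 region lay inside the NIPBL region. Over the whole Cγ1 segment RAD21 covered 9.238% and 8.447% and NIPBL 8.75% and 11.6%, with overlapping groups.

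The same Sγ1 stretch in control cells, measured over the region drawn from the block lists, held no RAD21 peak in either library. NIPBL control replicate 1 covered 953 bp in 3 peaks and replicate 2 covered 1302 bp in 2 peaks. NIPBL was therefore already called in parts of Sγ1 in control cells and RAD21 was not. The region was chosen for its block peaks, so the higher coverage in block cells is in part a result of that choice.

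**Figure D5:**
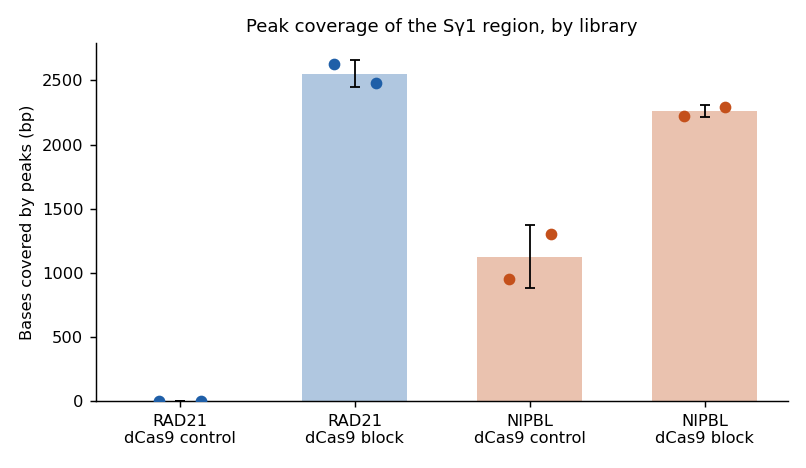
Bases of the 2693 bp Sγ1 region covered by peaks in each library (points), with the mean (bar) and SD for RAD21 (blue) and NIPBL (orange) in control and block cells, n = 2 each. Both proteins lie above 2200 bp in block cells; in control cells RAD21 is at 0 and NIPBL at 953 and 1302 bp.

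From Sγ1 to Eμ, RAD21 had no region called in both libraries for 88.4 kb. NIPBL had 6 in that stretch. After 59.98 kb without any came a small region between Cγ3 and Cδ at chr12:114635164-114635344. Another 4 lay in Cμ-Sμ, where NIPBL covered 14.8% and 15.98% of 6 kb, while RAD21 covered 0% and 9.883%. The remaining region, chr12:114664857-114665150, lay just before Eμ. The last of these 4, chr12:114662545-114662918, is the AGCT-dense Sμ region printed above, with 12.8 copies of AGCT per 100 bp. In block cells it was called over 51 bp in NIPBL replicate 1 and 374 bp in replicate 2, so its extent there rests on replicate 2. NIPBL control replicates 1 and 2 covered 374 and 374 bp of it. At Sμ and at the Cγ2b switch repeat NIPBL was therefore called in both block libraries without RAD21 in both, in contrast to Sγ1. In control cells RAD21 differed between libraries at these places. Replicates 1 and 2 covered 0 and 418 bp of the Cγ2b region and 0 and 31 bp of the Sμ region. Over the Cμ-Sμ segment they covered 0 and 2534 bp.

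At Eμ, the intronic enhancer, and JH the proteins met again. The regions chr12:114665338-114666182 (RAD21) and chr12:114665645-114665891 (NIPBL) had centres 8 bp apart. Near JH, the regions chr12:114668362-114669143 and chr12:114668632-114668906 had centres 16 bp apart. In both cases NIPBL lay inside RAD21. RAD21 covered 428 and 845 bp and NIPBL 228 and 294 bp of the first region. The line has a JH deletion, whose ends are not given, and an Eμ-driven transgene that can add reads, and their part in these values was not tested.

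IGCR1 held the last RAD21 regions called in both libraries within this interval, and no NIPBL region. Beyond it, RAD21 replicate 2 alone had a peak of 107 bp at chr12:114741322-114741428. Sites past the end of the interval were not examined. The 2 RAD21 regions, chr12:114723022-114724175 and chr12:114725713-114726488, lie 3196 bp upstream of Gm16947 and 1655 bp upstream of Adam6b, outside any gene. RAD21 covered 993 and 997 bp of the first and 679 and 673 bp of the second. NIPBL had 0 and 177 bp at the first and 142 and 0 bp at the second, so a NIPBL peak was called in 1 list at each. The nearest NIPBL region called in both lists was 54830 bp away by centres. RAD21 peaks covered 23.89% and 29.93% of this 7 kb segment and NIPBL peaks 4.729% and 3.257% (exact permutation p = 0.333). The 10 kb window from 114720001 had 1672 and 2318 bp of RAD21 and 331 and 228 bp of NIPBL, which limma put at 1.67 on the log2 scale (SE 0.26, adjusted p = 0.0201). Of 38 windows in the interval, 6 could be tested, and this one and that in the 3'CBEs were the 2 called; this call was likewise lost without either NIPBL library.

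With −log10 q of at least 3, the order kept its frame and lost most of NIPBL. For RAD21, 10 regions remained: 6 in the 3'CBEs, 1 at Sγ1, 1 near JH and 2 in IGCR1. For NIPBL, 3 regions remained, in the 3'CBEs (chr12:114460649-114461318), at Sγ1 and at Eμ (chr12:114665645-114665891). The NIPBL regions of the 3'RR, Cγ2b and Cμ-Sμ did not pass in both libraries, and in the 3'RR their folds lay between 2.721 and 4.346. Overlapping regions of both proteins remained at 2 places, in the 3'CBEs and at Sγ1. The threshold cut the lists unequally, keeping 42.7% and 52.3% of the RAD21 lists but 35.3% and 11.1% of the NIPBL lists. With lists cut instead to the length of the shortest, 13 RAD21 and 16 NIPBL regions remained in the interval. Of those RAD21 regions 8 overlapped a NIPBL region.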

How the data were processed

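RAD21 (antibody Abcam ab992) and NIPBL (Bethyl A301-779A) were mapped by ChIP-seq with 5 ug of antibody, per the labels' protocols. The submitters' processing notes name Bowtie2 2.2.8, SAMtools 1.8, MACS2 (version and settings not given) and the build mm9. The authors deposited 1 broadPeak list per library, called against a control library per the peak names. Each list gives a fold, a ratio computed by the authors' caller, and the −log10 p and −log10 q values that the authors deposited. The fold served only to rank peaks within a list, and the score that the authors' caller deposited was not used. Sequencing depth is not given in the lists.

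Peaks on 19 autosomes and X were read against GENCODE vM1 on NCBIM37. Regions were merged peaks with a peak in both libraries. Igh segments have approximate ends set by hand from the known order of the locus. Windows of 10 kb whose mean covered length reached 500 bp were tested on log2(covered bp + 500) with limma 3.58.1 in R 4.3.3, RAD21 against NIPBL, Benjamini-Hochberg over all windows, adjusted p under 0.05. This log2 scale was computed here, on the deposited peaks, and understates the change of low windows. Replicate numbers did not pair the libraries. Other steps used Python 3.11.15, numpy 2.4.6, scipy 1.17.1, matplotlib 3.10.9 and samtools 1.23.1. Named genes were up to 8 protein-coding genes per direction whose symbol is not a clone or Rik name, ranked by covered bp among those past the threshold. Up to 5 genes nearest to the shared regions of highest fold were also named. In some lists, genes were named from among the 5 with the largest difference, and not always all of them. Igh regions were all those called in both libraries that the order turns on. Members, lists and rules were chosen with earlier results of these data known. The Ig2b lists were not analysed here. Alternatives were a stricter q, lists cut to 63052 peaks, 50% overlap, protein-coding starts, 1 kb from a start, other window sizes, 100 bp added, no filter, quantile normalization, a replicate block and leaving out each library.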

Additional observations from a re-analysis of the deposited data

Results flagged for a closer look

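At the Sγ1 region RAD21 and NIPBL stood in opposite order in block and control cells. Covered length of RAD21 minus NIPBL averaged 293.5 bp in block cells, where both RAD21 libraries were above both NIPBL libraries. In control cells it averaged -1127.5 bp, where RAD21 was not called in either library and both NIPBL libraries had peaks. The difference between the conditions was not tested. The region was drawn from the block lists, and the sequence is a 49 bp repeat; the part of read placement in the repeat was not tested.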

How the results depend on the processing

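With −log10 q of at least 3, the share of RAD21 regions over NIPBL regions was 8.421% and that of NIPBL over RAD21 20.01%. The difference in median distance to a start turned to 13.56 kb, the difference in the share within 5 kb was -35.02 points, 7526 genes had RAD21 and 3907 both, start windows gave 348 (RAD21 higher) and 2490 (NIPBL higher), and Igh kept 3 NIPBL regions, 2 of them overlapping RAD21. Within 1 kb of a start 6208 genes had RAD21 and 4847 both. Without a filter the counts were 11557 and 5980 in genome windows and 1114 and 2685 in start windows. Quantile normalization gave 2966 windows with NIPBL higher and, in start windows, 1468 and 1430. In start windows, lists cut to equal length gave 1746 with NIPBL higher, 100 bp added gave 112 and 493, and 2 kb windows gave 46 with RAD21 higher. The cause was not tested. The replicate numbers share only a number. Deviations of log2 covered bp from each protein's own mean had a correlation of -0.132 between same-numbered libraries over 14550 windows. With the replicate numbers as a replicate block, 410 and 1640 start windows passed. The crossed pairing, chosen after seeing the data, gave 373 and 1482. In genome windows the replicate block gave 2737 and 2409 and the crossed pairing 2245 and 1920. Leaving out each library gave, in genome windows, 0 to 1975 with RAD21 higher and 0 to 4020 with NIPBL higher, and in start windows 0 to 1278 and 0 to 5988; both counts were 0 without either NIPBL library, where limma gave 1713 and 1706 (start windows 221 and 925) at an unadjusted p under 0.05 without NIPBL replicate 1. There the single library left takes its spread from the other protein's pair. For overlaps and for Igh, leaving out a library made every peak of that protein's other list a region, a looser definition. The shares then ran from 13.72% to 28.36% for RAD21 and from 12.78% to 48.17% for NIPBL. Igh had 15 to 28 RAD21 and 19 to 47 NIPBL regions. Of the 16 gene entries named from start windows, all were called under quantile normalization, no filter, equal list length, either block and without either RAD21 library; 11 were with 100 bp added, 9 of 12 tested in 2 kb windows, 7 of 11 tested at the stricter q, and none without either NIPBL library. No sign turned. Unknown depth limits every count of called peaks.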
